A study of Mus musculus with 32 samples.

Results

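The RNAs described here are 9 structured non-coding RNAs, chosen by gene symbol: the RNase P RNA Rpph1 and its relatives Rprl1, Rprl2 and Rprl3, the RNase MRP RNA Rmrp, the 7SK RNA Rn7sk, the Y RNAs Rny1 and Rny3, and the telomerase RNA Terc. They are 9 gene names on 10 of the 49671 rows of the deposited tables, because Rprl1 is listed under 2 identifiers, and 44957 rows had at least 1 read. RNA came from the vomeronasal organ (VNO) epithelium of 32 individual mice, all 42 days old (P42), with 4 males and 4 females of each of 4 inbred strains. The strains were C57/BL6 (B6 below), 129S6/SVEV (129), SJL/J (SJL) and SWR/J (SWR), and the labels name no allele or agent. Total RNA was depleted of ribosomal RNA and made into stranded libraries without selection for poly(A) tails. Levels are deposited normalized counts (read pairs divided by a size factor of the library) unless another unit is named. The strains were compared to ask which of these RNAs differ between genetic backgrounds, and the sexes to ask whether they differ between males and females.

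These RNAs work as the catalytic or scaffold part of ribonucleoproteins. RNase P removes the leader of precursor tRNAs, and RNase MRP, which shares most of its proteins, acts on precursors of ribosomal RNA. 7SK RNA holds the elongation factor P-TEFb in an inactive form, Y RNAs bind the Ro60 and La proteins, and Terc carries the template from which telomerase makes telomere repeats. In mammals RNA polymerase III transcribes all of them but Terc, which RNA polymerase II transcribes. Their promoters lie mostly upstream of the gene.

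The reads on genes ranged from 5106398 to 18640871 a library, with a median of 11461344, and the shallowest library was B6 female replicate 4. Vomeronasal neuron markers (5 of 5 detected, Omp and the G protein subunits Gnai2 and Gnao1 among them) summed to 2144 to 3265 RPM, the reads of a gene scaled to a common total of each library, over all libraries. In B6 they summed to 2144 to 2684 RPM, against 2552 to 3102 in 129, 2497 to 2901 in SJL and 2455 to 3265 in SWR, and 5 of 5 had their lowest median in B6. Markers of ciliated respiratory cells, Foxj1 and Dnah5, summed to 323 RPM in 129 male replicate 1 and 194 in B6 female replicate 1 and to at most 72.7 in the other 30. Results that move without either library are given with and without it. The labels give each replicate its own mouse, library and lane, with 1 lane for each replicate number across all 8 groups, so that p-values measure the spread between mice of inbred strains together with that of their lanes.

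Among strains, 7 of the 9 RNAs passed the filter on low counts and were tested with edgeR, and 3 of the 7 (Rprl3, Terc and Rny3) had an absolute log2 fold change (LFC) above 1 with a Benjamini-Hochberg adjusted p (FDR) under 0.05 in at least 1 of 6 strain pairs. Of all 18382 genes tested, 19.8% did so. Without B6 male replicate 4, 1 of the 7 did (Rprl3). With the FDR alone, 7 of 7 passed in at least 1 pair, beside 80.1% of all genes. B6 stood highest in mean level for 5 of the 7 (Rpph1, Rmrp, Rny1, Rny3 and Terc), 129 for Rprl3 and SWR for Rn7sk. Rmrp in B6 was not told apart from SJL (edgeR FDR = 0.901) or SWR (0.682), nor Rny1 from SWR (edgeR FDR = 0.418) or SJL (0.068). Rn7sk in SWR was not told apart from SJL (edgeR FDR = 0.424) or B6 (0.147). Of all genes past both limits, 1602 were higher and 442 lower in B6 than in 129. Against SJL they were 979 and 490, and against SWR 1017 and 463. How many of all genes had their highest mean in B6 was not counted. The part of the lower vomeronasal neuron markers of B6 in its differences was not tested. In RNA of a whole tissue, fewer cells that hold an RNA and less of it per cell cannot be told apart.

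**Figure D1:**
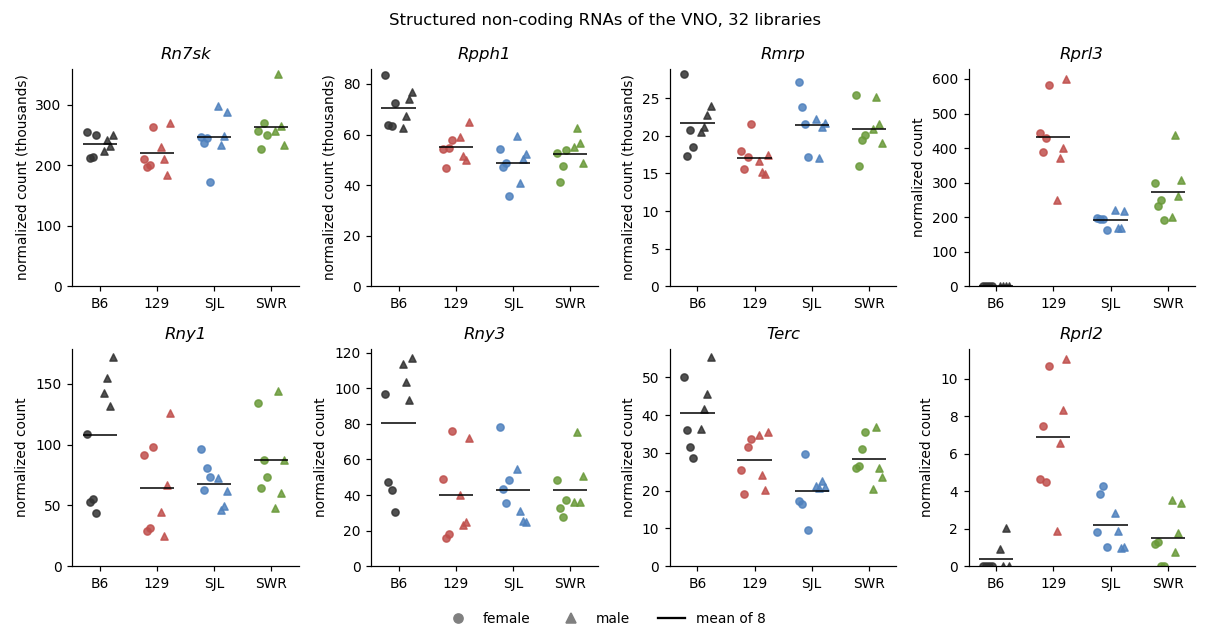
Normalized counts of 8 RNAs in each library, by strain on the horizontal axis, with circles for females, triangles for males and a line at the mean of the 8 libraries of a strain. Every vertical axis starts at 0, and those of Rn7sk, Rpph1 and Rmrp carry their multiplier on the label. Rprl3 lay at 0 in all 8 B6 libraries and between 163 and 600.03 in the other 24.

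In each pair the RNAs with an FDR under 0.05 can be set beside all genes. Between B6 and 129 they were 6 of 7 (52.8% of all genes), between B6 and SJL 4 (45.7%), and between B6 and SWR 4 (40.9%). They were 3 of 7 between 129 and SJL (38.3%), 3 between 129 and SWR (41.8%), and 2 between SJL and SWR (32.5%). Calls with an LFC limit as well were 2 between B6 and 129 (11.1% of all genes), 2 between B6 and SJL (7.99%), 1 between B6 and SWR (8.05%), 1 between 129 and SJL (8.38%), 0 between 129 and SWR (7.73%) and 0 between SJL and SWR (4.5%). In those last pairs with no call, edgeR gave 3 and 2 RNAs past the FDR alone. The libraries of both strains lay wholly apart for 1 of 7 RNAs between B6 and 129 (14.4% of all genes), for 2 between B6 and SJL (13.1%) and for 2 between B6 and SWR (12.5%). They lay apart for 1 between 129 and SJL (11.9%), and for 0 between 129 and SWR (13.5%) and 0 between SJL and SWR (10.2%). The 6 pairs share libraries, so that a strain standing apart from the rest enters 3 of them.

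The RNase P RNA family held an abundant RNA, Rpph1, and 3 relatives with few or no reads. Rpph1, on the minus strand of GRCm38 chromosome 14 (chr14:50807449-50807767, 319 bases), is the gene of the RNase P RNA itself. Rprl3 (chr8:3803069-3803358, minus strand, 290 bases), Rprl2 (chr3:22251374-22251663, plus strand, 290 bases) and Rprl1 (chr6:69326844-69327170, minus strand, 327 bases) are annotated as ribozyme genes that resemble it. Their sequences are shown because a read is counted only when it can be placed on 1 of them. They were taken from the GENCODE M21 transcripts on GRCm38 and cut to the stretch that a local alignment to Rpph1 covers. Capitals in the copies mark bases that differ from Rpph1, and capitals in Rpph1 mark bases that the copies lack.
Rpph1: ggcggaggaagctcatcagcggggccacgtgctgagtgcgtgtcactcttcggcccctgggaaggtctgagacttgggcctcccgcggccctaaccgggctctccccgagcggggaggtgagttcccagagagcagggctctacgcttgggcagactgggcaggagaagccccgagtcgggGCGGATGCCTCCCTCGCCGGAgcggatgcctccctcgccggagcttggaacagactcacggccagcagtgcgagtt
Rprl3: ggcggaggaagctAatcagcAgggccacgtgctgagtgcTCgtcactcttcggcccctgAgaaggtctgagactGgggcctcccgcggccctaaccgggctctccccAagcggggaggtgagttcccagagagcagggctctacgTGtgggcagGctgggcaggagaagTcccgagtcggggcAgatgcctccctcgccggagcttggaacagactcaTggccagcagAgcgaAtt
Rprl2: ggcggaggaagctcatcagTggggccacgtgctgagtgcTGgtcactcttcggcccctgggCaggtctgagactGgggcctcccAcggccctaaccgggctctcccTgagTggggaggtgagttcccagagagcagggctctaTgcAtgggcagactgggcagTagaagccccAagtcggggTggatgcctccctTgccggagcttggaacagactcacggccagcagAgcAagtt
Rprl1: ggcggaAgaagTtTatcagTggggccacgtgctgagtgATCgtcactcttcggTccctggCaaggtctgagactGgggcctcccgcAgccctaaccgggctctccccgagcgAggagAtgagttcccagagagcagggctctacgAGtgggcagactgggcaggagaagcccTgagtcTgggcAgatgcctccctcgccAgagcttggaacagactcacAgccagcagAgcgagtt

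All 3 copies aligned to bases 1 to 257 of Rpph1, counted from its 5′ end, over 236 pairs of bases. Identity was 93.64% for Rprl3 (15 substitutions), 93.22% for Rprl2 (16) and 91.1% for Rprl1 (21). Substitutions G40T, T75G and T250A, written with the Rpph1 base first, occur in 3 of 3 copies. Rpph1 has 21 bases (182 to 202) with no counterpart in any copy, and these equal the 21 bases that follow them, so that Rpph1 holds a direct repeat where each copy holds the unit once.

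Of the 112 windows of 1 read length in each aligned copy, 0 matched Rpph1 exactly. Such a window held 6 to 8 substitutions in Rprl3, 8 to 10 in Rprl2 and 8 to 13 in Rprl1. The longest run shared with Rpph1 was 37 bases for Rprl3, 32 for Rprl2 and 27 for Rprl1. These counts are of the B6 reference sequence, on which the reads of all 4 strains were placed, and the sequences of the other strains were not analysed here.

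Rpph1 had 0.322 to 0.715% of the reads of a library and ranked 6 by reads, and 4 by reads per kilobase, among 49412 genes with a length. In B6 it had 62785 normalized counts in the lowest library, 69918.5 at the median and 83682 in the highest (mean 70526 ± 7562, SD, n = 8). The 129 libraries ran from 46933 over 54454 to 65075 (54915 ± 5726). SJL ran from 35582 over 49515 to 59416 (48608 ± 7576) and SWR from 41352 over 53324 to 62565 (52356 ± 6416). The B6 libraries thus lay above every SJL and SWR library (8 of 8), and 5 of 8 lay above every 129 library.

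The LFC of Rpph1 was 0.54 from B6 to SJL (SE 0.084, B6 higher, edgeR FDR = 2.5e-06), 0.44 to SWR (SE 0.084, FDR = 6.45e-05) and 0.36 to 129 (SE 0.084, FDR = 0.000511). All 3 lie under the LFC limit of 1. Among 129, SWR and SJL, its LFC was 0.18 (129 minus SJL, edgeR FDR = 0.0892), 0.08 (129 minus SWR, FDR = 0.475) and -0.10 (SJL minus SWR, FDR = 0.384), so that these neighbours in the order were not told apart.

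Rprl3, which lies between genes at 21939 bases from the nearest, had no read in B6. Its 8 B6 libraries had 0 reads among 518860 on the RNase P RNA genes, which allows a share of up to 0.000578% (counting error only). In 129 it had 251 normalized counts in the lowest library, 414 at the median and 600.03 in the highest (433 ± 114, SD, n = 8). SJL ran from 163 over 196 to 221 (191 ± 22.4) and SWR from 193 over 256 to 437 (273 ± 78.3). Every library of 129, SJL and SWR thus had at least 138 reads on Rprl3 where no B6 library had any.

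Against 3 reads in each B6 library, a mean floor of 3.53 normalized counts, Rprl3 was at least 122.6-fold higher in 129, 54.1-fold higher in SJL and 77.2-fold higher in SWR (edgeR FDR = 3.75e-18, 7.54e-16 and 6.45e-17). Among the 3 strains that had it, 129 was above SJL with an LFC of 1.19 (SE 0.16, edgeR FDR = 5.77e-07), and all 8 libraries of 129 lay above all of SJL. It was above SWR by 0.68 (SE 0.15, edgeR FDR = 0.000717), and SJL was below SWR by 0.51 (LFC -0.51, SE 0.16, FDR = 0.0138), with libraries that overlapped in both pairs. The FDR from SJL to SWR passed 0.05 in 2 of 36 omissions of a library or a replicate number (replicate 2, FDR = 0.13, and replicate 3 of every group). For that pair the edgeR FDR was 0.0745 in males alone and 0.0986 in females alone. From 129 to SWR it was 0.189 in males alone (LFC 0.43). Without replicate 4 of every group the LFC from 129 to SJL was 0.98 and no longer past 1. Without 129 male replicate 1, the library with the most ciliated cell markers and the lowest 129 value, it was 1.28.

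As a share of the reads on the 4 RNase P RNA genes, Rprl3 took 0.782% in 129 (Wilson 95% interval 0.757 to 0.808%), 0.390% in SJL (0.372 to 0.409%) and 0.516% in SWR (0.496 to 0.537%), and the rest was almost wholly Rpph1. By library the share was 0.424 to 0.992% in 129, 0.336 to 0.457% in SJL and 0.355 to 0.694% in SWR. The intervals cover counting error only, and read pairs carry no molecular identifiers.

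**Figure D2:**
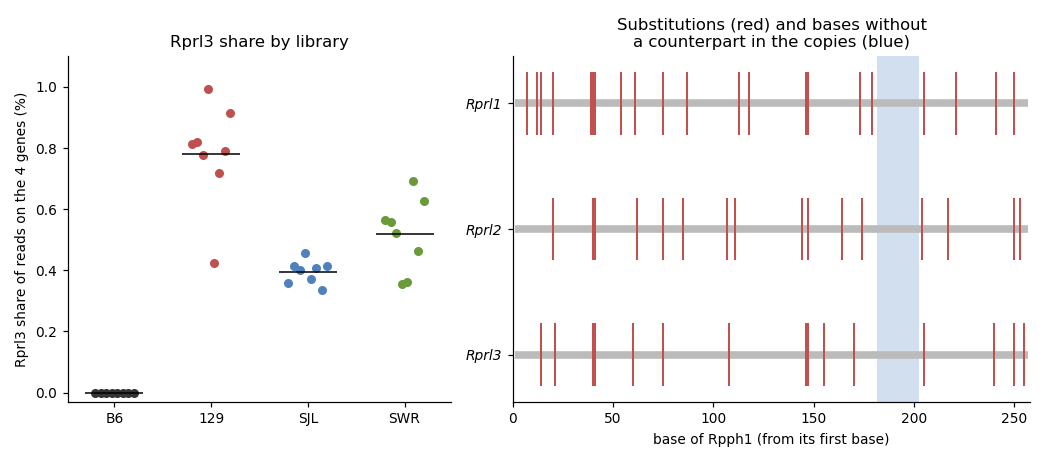
Left, the share of Rprl3 in the reads on Rpph1, Rprl1, Rprl2 and Rprl3 (vertical axis, percent) in each library of 4 strains, with a line at the mean. Right, positions along Rpph1 (horizontal axis, bases from its first base) at which Rprl1, Rprl2 and Rprl3 differ from it (red, 21, 16 and 15 positions) and the 21 bases that the copies lack (blue). B6 libraries lay at 0%, and substitutions were spread along the whole aligned stretch.

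Rprl2 had 90 reads in all 32 libraries, too few for the filter on low counts, and enters none of the counts above. B6 had 3 reads, in 2 libraries (both male), and 129 had 55, with 2 to 13 in each of its 8 libraries. SJL had 19 reads (1 to 4 in each of 8 libraries) and SWR 13 (in 6 of 8). So 129 held the most reads and B6 the fewest for both Rprl2 and Rprl3. DESeq2 and edgeR without the filter both called Rprl2 in at least 1 strain pair, as they did 7607 and 12873 of 44957 genes. Rprl1 had 0 reads under either identifier in every library, and its 2 gene models cover each other on the same strand over 234 of the 327 bases of the longer, where a read belongs to both and is counted for neither. The 17 other genes of the ribozyme class in the annotation, all nearer to Rpph1 than to Rmrp in sequence, had 1 to 57 reads each in all libraries together.

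Rpph1 has a divergent neighbour, the poly(ADP-ribose) polymerase gene Parp2, which begins 74 bases away on the other strand. The stretch between and beyond them is shown because it holds the start of both genes and because Rpph1, unlike Parp2, was highest in B6. It was taken from the RefSeq promoter table (GRCm38.p6), where 0 of the 9 RNAs have an entry of their own and the window of Parp2 covers this side of Rpph1 (chr14:50807768-50807965), and it is written on the strand of Rpph1, ending at its start. Capitals mark an octamer motif and a TATAA on the opposite strand.
Rpph1 upstream: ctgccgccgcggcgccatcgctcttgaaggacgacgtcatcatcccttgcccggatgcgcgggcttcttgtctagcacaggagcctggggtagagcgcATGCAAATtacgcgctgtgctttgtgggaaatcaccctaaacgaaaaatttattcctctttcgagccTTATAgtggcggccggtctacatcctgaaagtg

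The octamer (ATGCAAAT, read on both strands) had its nearest base 93 bases upstream of Rpph1, and the TATAA had its nearest base 29 bases upstream. Among 32851 promoter windows of 300 bases the octamer was found in 1.74%, TATAA in 24.9% and both in 0.597%. Both were also found in the window of Ccdc107 that lies upstream of Rmrp. There the nearest base of the octamer lay 216 bases and that of TATAA 164 bases from the start of Rmrp. That window begins 57 bases upstream of Rmrp, so that the bases nearer to its start were not searched. A match of letters is no more than that. Parp2 had 249.7 ± 18.6 normalized counts in B6, 280.03 ± 14.3 in 129, 264 ± 16.3 in SWR and 273 ± 18.3 in SJL (SD, n = 8), and it was lower in B6 than in 129 by 0.17 (LFC -0.17, edgeR FDR = 0.00816). Over the same pair Rpph1 was higher in B6.

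GENCODE M21 also places an exon of Ccnb1ip1 over 233 of the 319 bases of Rpph1, on the same strand. Ccnb1ip1, a ubiquitin ligase gene of meiosis, had 0 to 21 reads a library, and whether the Ensembl 87 models used for counting share that exon was not given in the sources used here. Ccnb1ip1 was called between 129 and SWR (LFC 2.65, edgeR FDR = 0.000156) and between 129 and SJL (1.33, FDR = 0.0227). It was also called between B6 and 129, lower in B6 (LFC -2.73, edgeR FDR = 0.000164). Where the counting models hold an exon of both genes, read pairs on it are counted for neither.

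Rmrp (chr4:43492788-43493058, minus strand, 271 bases), the RNase MRP RNA, had 0.129 to 0.249% of the reads and ranked 5 per kilobase. It ran from 17320 over 20946 to 28253 normalized counts in B6 (21655 ± 3397, SD, n = 8) and from 14974.5 over 16936 to 21526 in 129 (17069 ± 2113). In SJL it ran from 17024 over 21623 to 27075 (21460.4 ± 3284) and in SWR from 16018 over 20498 to 25397 (20951 ± 3147). The 129 libraries were the lowest as a group, and their range overlapped that of each other strain.

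In edgeR, 129 was below B6 with an LFC of 0.34 (B6 minus 129, SE 0.099, FDR = 0.00401), below SJL (129 minus SJL -0.33, FDR = 0.0088) and below SWR (-0.29, FDR = 0.0187). B6, SJL and SWR differed from one another by an LFC of at most 0.06 (SE 0.099, smallest of the 3 FDR values 0.682). Without replicate 3 of every group the edgeR FDR was 0.0613 against B6, 0.0809 against SJL and 0.114 against SWR, and that against SWR was also lost without replicate 1, replicate 2 or SWR female replicate 1. In females alone none of these 3 pairs passed (LFC 0.24, -0.31 and -0.17, edgeR FDR = 0.26, 0.167 and 0.49), while all 3 did in males. Ccdc107, whose exon lies on the opposite strand over 124 of the 271 bases of Rmrp, had 332 ± 36.3 normalized counts in B6, 367 ± 20.5 in 129, 297 ± 16.8 in SWR and 397 ± 38.1 in SJL. Counting used strand.

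Rn7sk (chr9:78175303-78175633, minus strand, 331 bases) was the second gene of the whole series by reads (rank 2) and by reads per kilobase, with 1.56 to 2.96% of a library. It ran from 212380 over 236654 to 254948 normalized counts in B6 (234604 ± 16791, SD, n = 8) and from 184024 over 209862 to 270241 in 129 (220522 ± 31535). SJL ran from 171881 over 246283 to 297698 (246061 ± 38281) and SWR from 227576 over 256317 to 350823 (263717 ± 38043). Ranges overlapped in all 6 pairs.

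Only 1 of the 6 pairs passed the FDR limit for Rn7sk, with 129 below SWR (LFC -0.25, SE 0.087, edgeR FDR = 0.0213), and its other LFC values lay between -0.16 and 0.09. That 1 pair was lost in 4 of 36 omissions (replicate 2, with an LFC of -0.17 and an edgeR FDR of 0.215, replicate 3, 129 male replicate 3 and SWR male replicate 2), and in either sex alone (FDR = 0.0686 in males and 0.182 in females). Its neighbour C920006O11Rik, a long non-coding RNA gene 281 bases away on the other strand, had 67.7 ± 10.4 normalized counts in B6 and 65.6 ± 6.72 in 129 against 33.3 ± 8.82 in SJL and 29.5 ± 4.16 in SWR (n = 8 each). It was called from B6 to SWR (LFC 1.20, edgeR FDR = 3.25e-09), a pair in which the LFC of Rn7sk was -0.16 (FDR = 0.147). From B6 to SJL it was called too (LFC 1.01, edgeR FDR = 8.52e-08), where Rn7sk had -0.06 (FDR = 0.593). Its call from 129 to SWR (LFC 1.16, edgeR FDR = 5.53e-09) fell in the 1 pair that Rn7sk passed, with the opposite sign (-0.25).

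**Figure D3:**
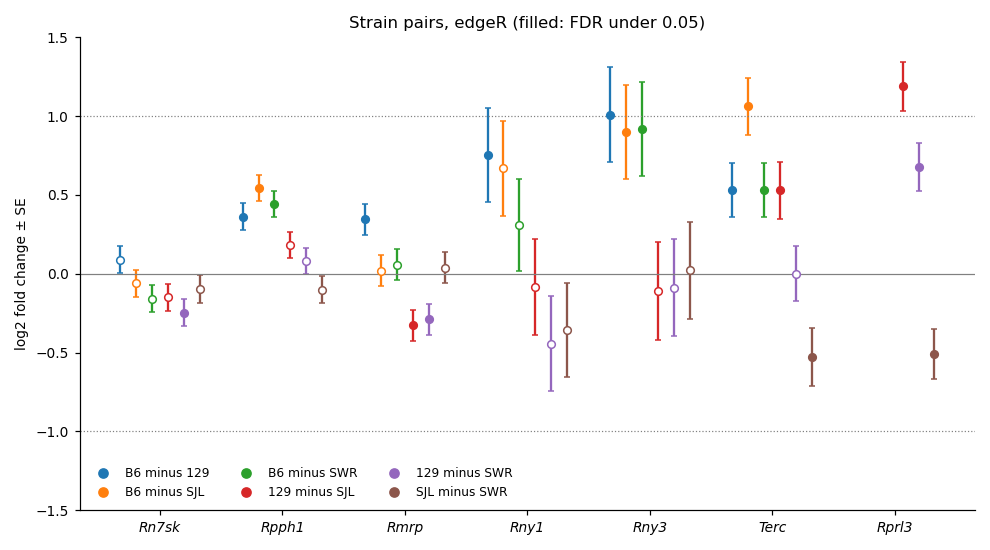
LFC of 7 RNAs (horizontal axis) in 6 strain pairs (vertical axis, log2 scale, with bars of 1 SE approximated from the F statistic). Filled circles have an edgeR FDR under 0.05, and dotted lines mark the LFC limits of 1 and -1. The 3 pairs of Rprl3 with B6 are left out because B6 had no read. Rny3 (B6 minus 129, 1.01) and Terc (B6 minus SJL, 1.06) lie just past the limit.

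The Y RNAs are encoded close together, Rny1 at chr6:47788069-47788180 on the minus strand and Rny3 at chr6:47781624-47781725 on the plus strand, 6343 bases apart. Their GENCODE M21 sequences are shown with runs of 8 or more bases that occur in both written in capitals. These runs include parts of both ends, where the RNA pairs to form the stem that Ro60 binds.
Rny1: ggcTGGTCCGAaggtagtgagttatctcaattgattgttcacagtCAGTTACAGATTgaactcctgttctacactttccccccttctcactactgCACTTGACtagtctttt
Rny3: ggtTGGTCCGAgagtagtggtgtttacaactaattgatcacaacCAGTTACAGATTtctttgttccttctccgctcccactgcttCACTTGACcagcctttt

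The alignment of both had 81 identical bases of 100 (81%). With 112 and 102 bases, both are shorter than 1 read, and Rny1 had 20 to 184 reads a library and Rny3 14 to 123. Reads on Rny1 exceeded those on Rny3 in 32 of 32 libraries, with a mean ratio of 1.69 ± 0.517 (SD). The ratio was 1.32 ± 0.149 in B6, 1.67 ± 0.514 in 129, 2.06 ± 0.612 in SWR and 1.71 ± 0.456 in SJL (n = 8 each).

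Rny3 ran from 30.7 over 95.2 to 117 normalized counts in B6 (80.7 ± 34.7, SD, n = 8) and from 16.0 over 32.6 to 75.8 in 129 (39.8 ± 23.8). SJL ran from 25.1 over 39.5 to 78.1 (42.7 ± 17.8) and SWR from 27.4 over 36.7 to 75.3 (43.0 ± 15.2). In each of the 3 pairs 5 of the 8 B6 libraries lay above every library of the other strain, while the other 3, all female, lay within its range. B6 was higher than 129 with an LFC of 1.01 (SE 0.30, edgeR FDR = 0.00551), which is a call, and higher than SJL by 0.90 (FDR = 0.0143) and SWR by 0.92 (FDR = 0.0128). In males alone the LFC was 1.41 over 129, 1.62 over SJL and 1.11 over SWR (edgeR FDR = 0.00184, 0.00057 and 0.00923), and in females alone it was 0.50, 0.10 and 0.62 (FDR = 0.383, 0.891 and 0.344). DESeq2 and edgeR without the filter put the LFC over 129 at 0.99 each, which is no call. The FDR over SJL was 0.0528 without replicate 3 and that over SWR 0.0771 without replicate 1. Leaving out a library or a replicate number ended the call against 129 in 15 of 36 cases, B6 female replicate 1 (LFC 0.94) and 129 male replicate 1 (0.99) among them. The other libraries were each of the 4 B6 males, replicates 2 and 3 of the 129 females and of the 129 males, SJL female replicate 1 and SJL male replicate 3, with LFC values of 0.90 or more, and the lowest LFC over these omissions was 0.83, without replicate 2 of every group.

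Rny1 was also highest in B6 and lowest in 129. It ran from 43.9 over 120.3 to 171.7 normalized counts in B6 (108 ± 50.6, SD, n = 8) and from 25.1 over 55.8 to 126 in 129 (64.1 ± 37.8). SJL ran from 46.3 over 67.8 to 96.3 (68.0 ± 16.5) and SWR from 47.8 over 80.2 to 144 (87.4 ± 34.7). Ranges overlapped in every pair, and B6 was higher than 129 by 0.75 (SE 0.30, edgeR FDR = 0.0352) with no other pair past the FDR limit. That FDR passed 0.05 in 12 of 36 omissions of a library or a replicate number, and was highest without replicate 2 (LFC 0.54, edgeR FDR = 0.171). The 12 were replicates 1, 2 and 3 of every group, each of the 4 B6 males, replicates 2 and 3 of the 129 females, and replicates 1 (FDR = 0.0626), 2 and 3 of the 129 males. In males alone the LFC was 1.19 (FDR = 0.0117) and in females alone 0.11 (FDR = 0.848).

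Within B6 the Y RNA values were mostly lower in females. Rny1 had 143, 155, 132 and 172 normalized counts in the 4 B6 males and 109, 52.8, 55.4 and 43.9 in the 4 B6 females, without overlap. For Rny3 the males had 114, 104, 93.3 and 117 and the females 97.0, 47.2, 42.6 and 30.7, which overlap in 1 female. The LFC from female to male within B6 was 1.17 for Rny1 (SE 0.38, edgeR FDR = 0.378) and 0.94 for Rny3 (SE 0.38, edgeR FDR = 0.484), so that neither passed over all genes. In SJL the females were the higher for both, with LFC values of -0.45 and -0.58 (FDR = 0.894 and 0.861). The test of whether the sex difference varies with strain gave an unadjusted edgeR p of 0.034 for Rny1 (FDR = 0.527) and 0.0619 for Rny3 (FDR = 0.579).

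Within strains, small nuclear RNA genes as a class varied with the Y RNAs, while the order of the strains differed. Over 1385 such genes, the summed RPM had a median of 387 over the B6 libraries, 236 over those of 129, 150.2 over SJL and 106 over SWR, and in B6 they were 287 to 371 in females and 403 to 476 in males. Pearson's r was taken between log2 of the normalized count + 1 of an RNA and log2 of that sum. The mean of each strain was subtracted from both, and that of each sex was not. Over the 32 libraries r was 0.850 for Rny1 and 0.750 for Rny3. It was 0.678 for Rprl3, 0.416 for Rmrp, 0.345 for Rn7sk, 0.248 for Rpph1 and 0.211 for Terc. Rprl3 had no read in the 8 B6 libraries, so that each r of Rprl3 rests on the other 24. Other short RNA classes varied with the other RNAs as well. For the summed small Cajal body RNAs r was 0.751 with Rn7sk, 0.726 with Rmrp, 0.697 with Rny1, 0.686 with Rpph1, 0.663 with Rny3, 0.576 with Rprl3 and 0.527 with Terc, and for the small nucleolar RNAs it was highest with Rprl3 (0.797) and Rny1 (0.699). All of these points come from the same libraries as the RNAs themselves. The part of short RNA recovery in the differences of these RNAs was not tested.

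**Figure D4:**
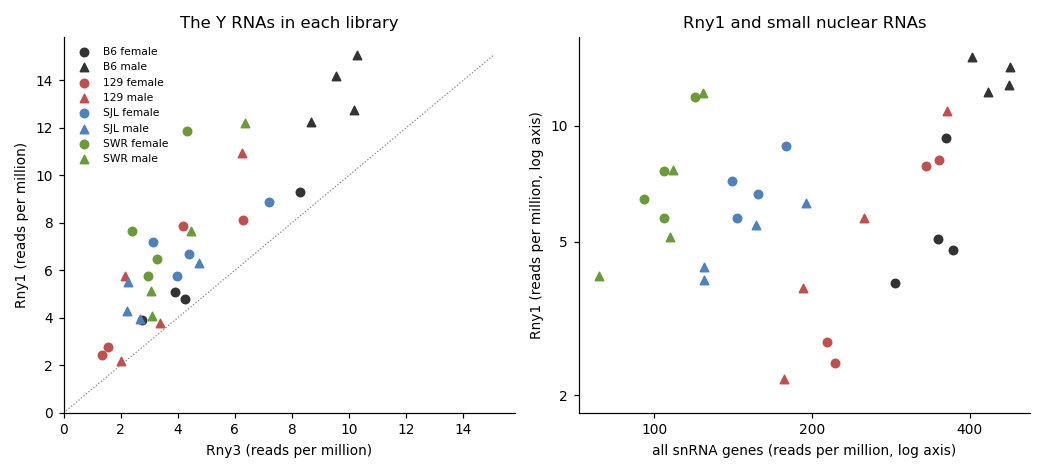
Left, Rny1 against Rny3 in RPM, 1 point a library, with a dotted line where both are equal, and all 32 points lie above it. Right, Rny1 against the summed RPM of 1385 small nuclear RNA genes, on log axes. Colours are strains, circles females and triangles males, and the 4 B6 males lie at the upper right of both.

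Terc (chr3:96414437-96414859, minus strand, 423 bases) is shown by the first 60 bases of its GENCODE M21 sequence, which carry the template for the telomere repeat, in capitals.
Terc: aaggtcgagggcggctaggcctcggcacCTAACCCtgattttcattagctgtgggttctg

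Terc was low, with 9 to 58 reads a library. It ran from 28.5 over 39.0 to 55.3 normalized counts in B6 (40.7 ± 9.25, SD, n = 8) and from 19.2 over 28.5 to 35.4 in 129 (28.0 ± 6.59). SJL ran from 9.48 over 20.8 to 29.8 (19.8 ± 5.81) and SWR from 20.4 over 26.4 to 36.9 (28.3 ± 5.72). Of the B6 libraries, 7 of 8 lay above every SJL library, and 6 above every 129 library.

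The order was B6, then SWR and 129, then SJL. B6 exceeded SJL with an LFC of 1.06 (SE 0.18, edgeR FDR = 1e-05), which is a call, and exceeded 129 and SWR by 0.53 each (SE 0.17, FDR = 0.0106 and 0.0132). SJL was below 129 (129 minus SJL 0.53, FDR = 0.0207) and SWR (SJL minus SWR -0.53, FDR = 0.023). Of these smaller differences, SJL minus SWR lost the FDR in 5 of 36 omissions (replicate 2, with the highest edgeR FDR of 0.166, replicate 4, SJL female replicate 4, SWR female replicate 4 and SWR male replicate 2). The pair 129 minus SJL lost it in 3 (replicate 4, with an edgeR FDR of 0.25, replicate 1 and SJL female replicate 4). B6 minus 129 and B6 minus SWR each lost it in 1 (0.0917 without replicate 2 and 0.111 without replicate 1). In females alone the edgeR FDR was 0.241 for B6 minus 129 and 0.484 for B6 minus SWR. It was 0.12 there for 129 minus SJL and 0.0845 for SJL minus SWR, so that none of these passed. In males alone B6 minus 129 (edgeR FDR = 0.0315) and B6 minus SWR (0.0143) passed, while 129 minus SJL (0.208) and SJL minus SWR (0.359) did not. SWR and 129, neighbours in the order, differed by an LFC of 0.00062 (SE 0.17, FDR = 0.998). The LFC from B6 to SJL fell under 1 without SJL female replicate 4 (0.96) or B6 male replicate 4 (0.98) or replicate 4 of every group (0.93), and it was 1.003 without B6 female replicate 1.

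A processed pseudogene 1076 bases from Terc on the same strand, Gm21960, had its highest level in B6 too, with 28.0 ± 5.15 normalized counts against 17.7 ± 5.32 in 129, 16.6 ± 3.83 in SJL and 14.1 ± 3.95 in SWR (n = 8 each). It was called from B6 to SWR (LFC 1.02, edgeR FDR = 2.48e-05), where Terc had 0.53.

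Between the sexes, 0 of the 7 tested RNAs were called (absolute LFC above 1 and an edgeR FDR under 0.01), beside 0.0381% of all genes. None (0) had an unadjusted edgeR p under 0.05 either, beside 1648 of all 18382 genes, and DESeq2 gave 0 with an FDR under 0.05. LFC values from female to male over the 16 mice of each sex lay between -0.04 (Rmrp, SE 0.070) and 0.22 (Rny3, SE 0.22). For the abundant RNAs they were 0.11 (Rn7sk, SE 0.061) and 0.10 (Rpph1, SE 0.059). The interaction of sex and strain called 0 of 7 (0.0163% of all genes) with edgeR and 0 with DESeq2. An unadjusted p under 0.05 was found for 1 of 7, Rny1, with each. Of all genes, 1644 of 18382 had that with edgeR and 1811 of 44957 with DESeq2.

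Within strains the abundant RNAs varied together. Values were log2 of the normalized count + 1, with strain means subtracted and sex means kept. Over the 32 libraries Pearson's r was 0.837 between Rpph1 and Rn7sk, 0.747 between Rpph1 and Rmrp and 0.602 between Rmrp and Rn7sk. The Y RNAs had 0.863 with each other, and 0.343 to 0.414 with Rpph1. Terc had 0.669 with Rn7sk and 0.604 with Rpph1. Depth, as log2 of the reads on genes, had at most 0.311 with any of the Y RNAs and 0.177 with Rpph1. These values describe libraries that share depth and normalization.

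The genes most like each RNA in this measure differed between them. For Rpph1 the first was Eef1a1, a translation elongation factor (r = 0.908), and for Rn7sk they were the ribosomal protein genes Rpl7 (0.927) and Rps6 (0.922). For Rmrp they were the small Cajal body RNA Scarna2 (0.831) and the small nucleolar RNA Snora73b (0.824). Rny1 was most like the small nuclear RNA gene Gm25099 (0.887) and Rny3 (0.863), and Rny3 like Rny1 and Gm25099 (0.823). For Terc they were Fam103a1 (0.758) and the mitochondrial ribosomal protein gene Mrpl24 (0.756). For Rprl3, where only the 24 libraries outside B6 vary, they were Pet100 (0.768) and the processed pseudogene Gm2830 (0.764). Pet100 is a cytochrome c oxidase assembly gene that lies 177.2 kb away on the same chromosome.

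The proteins and factors that work with these RNAs were counted from 6 lists. Of 66 genes, 62 were tested, 1 was called in at least 1 strain pair (19.8% of all genes) and 46 passed the FDR alone (80.1% of all genes). The 1 called gene was Pop4, a protein subunit shared by RNase P and RNase MRP. It ran from 338 over 371 to 389 normalized counts in B6 (369.8 ± 17.1, SD, n = 8) and from 413 over 463 to 559 in 129 (479 ± 45.2). SJL ran from 123 over 170.04 to 186 (165 ± 21.5) and SWR from 166 over 179.96 to 209 (185 ± 17.2). All B6 and 129 libraries therefore lay above all SJL and SWR libraries.

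Pop4 was called in 4 pairs, with LFC values of 1.54 (129 minus SJL, SE 0.069, edgeR FDR = 2.67e-19), 1.38 (129 minus SWR), 1.17 (B6 minus SJL) and 1.01 (B6 minus SWR). Its order of strains was that of neither Rpph1, which was highest in B6 alone, nor Rmrp, which was lowest in 129. Of the 10 tested RNase P and MRP proteins, 7 passed the FDR alone in some pair, and their median LFC from B6 to SJL was 0.12 against 0.02 over all genes.

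Of the partners of 7SK, 7 of 7 passed the FDR alone in some pair with LFC values of at most 0.66. Cdk9, the kinase of P-TEFb, had 451 ± 39.4 normalized counts in B6, 539.7 ± 43.5 in 129, 360.003 ± 31.5 in SWR and 568 ± 41.4 in SJL, and SJL was above SWR (LFC 0.66, edgeR FDR = 5.21e-11). Larp7, which binds the 3′ end of 7SK, was highest in SWR (266 ± 23.4) as Rn7sk was, and exceeded 129 by 0.27 (129 minus SWR -0.27, FDR = 0.000847). The median LFC of this list from 129 to SWR was -0.09 against 0.01 over all genes.

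Both Y RNA binding genes passed the FDR alone. Trove2, which encodes Ro60, was higher in 129 (2136 ± 116) than in SJL (1824 ± 78.0) by 0.23 (edgeR FDR = 1.26e-05), and from B6 to 129, the pair in which Rny3 was called, the list had a median LFC of 0.00024 against 0.02 over all genes. Of 8 telomerase genes 5 passed the FDR alone. Tert, the reverse transcriptase, was higher in SJL (59.7 ± 9.61) than in SWR (37.7 ± 6.48) by 0.68 (edgeR FDR = 4.26e-05), a pair in which Terc was lower in SJL by 0.53 (LFC -0.53).

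The RNA polymerase III machinery had 23 of 32 genes past the FDR alone and 0 called, with medians from B6 to 129 of -0.08 against 0.02 over all genes. Pou2f1, the factor that binds the octamer, had 2389 normalized counts in B6, 1291 in 129, 1628 in SWR and 1588 in SJL, with an LFC of 0.89 from B6 to 129 (SE 0.081, edgeR FDR = 3.92e-11). Polr3d, a polymerase subunit, was lower in B6 than in 129 by 0.63 (LFC -0.63, FDR = 2.64e-09), and so was the initiation factor gene Brf1, by 0.45 (LFC -0.45, FDR = 7.34e-08). Brf2, on the same list, passed in no pair (smallest edgeR FDR = 0.0943, B6 minus 129, LFC -0.19). Of 6 other polymerase III RNAs on the list 3 were tested. The signal recognition particle RNAs Rn7s1 and Rn7s2 were highest in SJL, with 79.5 and 28.6 normalized counts against 37.9 and 14.6 in 129 (129 minus SJL LFC -0.99 and -0.94, edgeR FDR = 0.00712 and 0.0169), and the vault RNA Vaultrc5 passed in no pair.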

How the data were processed

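Per the labels and the methods of the study, total RNA of the VNO epithelium of individual mice was ribodepleted, made into TruSeq stranded libraries and sequenced as read pairs. Reads were trimmed with Trim Galore and placed with STAR 2.5.2b on GRCm38 (mm10) with the genes of Ensembl 87. The deposited counts are uniquely placed read pairs on the reverse strand of each gene. The normalized signal was made by the authors from these counts with a DESeq2 size factor for each library, and dividing the deposited tables gave 1 value per library (relative spread at most 1e-14). Unique placement drops reads that fit several copies equally well, and a pair on more than 1 gene of a strand is counted for none.

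From the counts, edgeR 4.0.16 (R 4.3.3, limma 3.58.1) tested the 18382 genes that passed filterByExpr over the 8 groups, with TMM normalization, strain and sex as additive terms and the quasi-likelihood F test. Calls between strains needed an LFC beyond 1 in size together with an FDR below 0.05, calls between sexes an FDR under 0.01, and FDR was taken over all genes of a comparison. SE is the absolute LFC over the square root of F. Raw tables, levels and alignments were handled in Python 3.11.15 with Biopython 1.88. Alternatives were DESeq2 1.42.0, its size factors in edgeR, no filter, the replicate number as a block, males or females alone, other limits, log2 of the normalized count + 1 or + 0.5, and leaving out each replicate number and each of the 32 libraries.

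Libraries were grouped by the labels for strain and sex. The replicate number is the lane number of the library description. Named genes are the 9 RNAs, genes that overlap or neighbour them, called genes of the partner lists, and the 2 genes most like each RNA, of which 1 is not reported here. Partner genes named beside these (Cdk9, Larp7, Trove2, Tert, Pou2f1, Polr3d, Brf1, Brf2, Rn7s1, Rn7s2 and Vaultrc5) were chosen after their values were seen. The RNAs and the lists were chosen with earlier results of these data known. Gene positions and sequences came from GENCODE M21.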

Additional observations from a re-analysis of the deposited data

Results flagged for a closer look

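A sample far from the other 3 of its group was found in 2 of 61 groups of 4 examined, beside about 1 in 20 that chance flags, and both lie in SJL females. Rprl3 had 163.3 normalized counts in SJL female replicate 4, while the others lay between 196.0 and 196.3, a gap that is large only because those 3 are so close. Rn7sk had 171900 in the same library against 236294 to 247513 in the others. That library also had the lowest Rpph1 (35582) and Terc (9.48) of all 32.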

How the results depend on the processing

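Of the 9 RNAs, 3 were called among strains, and 7 with the FDR alone. Leaving out libraries gave 1 to 3, with 1 (Rprl3) without B6 male replicate 4, and Rprl3 was called under every alternative. Rny3 was lost with DESeq2 (LFC 0.99) and without the filter (0.99), where Rprl2 was called. In males alone 4 were called, Rny1 added (3363 of 17708 genes), and in females alone 2, without Rny3 (3457 of 17608 genes). Sex called 0 under every alternative run, and the interaction called 1 (Rny1) with no filter. In that setting the interaction called 428 of 44957 genes, against 3 of 18382 in the main fit. Among 22 LFC values between strains past the FDR, 0 of 968 alternative values changed sign, 22 lost a call (LFC limit and FDR together) and 11 gained one. Most of these LFC values were under the limit already. By the FDR alone 55 of 924 alternative fits lost significance, 36 of them among 792 omissions, where 12 of the 22 LFC values lost it at least once. In females alone 13 of 22 lost it and in males alone 5. Of 280 for sex 5 changed sign, all near 0 and from leaving out libraries, with a range of -0.059 to 0.19 for Rprl3 (0.05 over all libraries) and -0.078 to 0.063 for Rmrp (-0.04).

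Over all genes 3632 were called, 7607 with DESeq2 and 12873 with no filter, which tested 44957 genes. A replicate block, for which same-numbered libraries gave no ground (22 of 112 correlations above 0.1, median -0.01, and 9 of 32 libraries closest to their own number), left 3 called among these RNAs and 3591 genes. Differences of mean log2 RPM kept the sign of 19 of the 19 LFC values that do not involve a strain without reads, and moved them by at most 0.13, as did log2 of the normalized count + 1 (0.11). Depth limits Rprl2, Terc and the Y RNAs, with as few as 0, 9 and 14 reads in a library.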
